A study of Mus musculus with 6 samples.

Results

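The genes described here are the kinesin motors of mouse oocytes. They were chosen by name: every probe set that the platform annotation pairs with a single gene symbol made of Kif or Kifc and a digit. This gave 104 probe sets of 41 genes, among 45037 non-control probe sets on the array. Fully grown oocytes at the germinal vesicle (GV) stage, with the nucleus still intact before the meiotic divisions, were compared between XY females of the B6.Y(TIR) strain and their XX littermates. In this strain a Y chromosome of Tirano origin is carried on a C57BL/6 background, and XY animals can develop ovaries. The XX littermates carry no Y chromosome. All females were 25 to 29 days old, received 5 IU of equine chorionic gonadotropin and gave oocytes 45 to 47 hours later, from which the cumulus cells were stripped with a fine pipette. Each sample was RNA from 10 oocytes, labelled in a pair of amplification cycles from oligo(dT) primers, so that the signal comes mainly from the 3' part of a transcript. There were 3 XX and 3 XY samples, read here as 1 female each, on 1 array each.

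Kinesins are motor proteins that use ATP to move along microtubules or to take them apart. Some carry organelles, vesicles and mRNA through the cytoplasm, some serve cilia, and others build the spindle, hold chromosomes on it and complete cell division. The mouse oocyte has no centrioles at this stage and assembles its spindle only after the nucleus breaks down, using products of mRNA stored during growth. The values below are therefore levels of stored transcripts, measured before the spindle forms.

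Several kinesin genes of the spindle group share letters in their promoters, which are shown first because this group holds Kif23, the only kinesin gene that fell. Of the stretches printed, 5 belong to spindle kinesins; Kif26b, a transport group gene that rose, is shown because it is the only gene of its group with both motifs. The motifs are the CHR element (cell cycle genes homology region), searched as TTTGAA, and the CCAAT box, searched as CCAAT, each on both strands. In dividing cells, CHR elements are known as sites of MuvB complexes and CCAAT boxes as sites of NF-Y. Each stretch runs from 120 bases before to 30 bases after the RefSeq start site (GRCm38.p6), 5' to 3' on the gene's strand, and capitals mark both motifs in either orientation (TTCAAA and ATTGG are the reverse complements).
Kif23, chr9:61946770-61946919, minus strand: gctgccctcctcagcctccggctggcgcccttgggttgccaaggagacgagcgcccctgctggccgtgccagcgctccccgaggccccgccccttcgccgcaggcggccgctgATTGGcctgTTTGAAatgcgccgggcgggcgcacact
Kif11, chr19:37376262-37376411, plus strand: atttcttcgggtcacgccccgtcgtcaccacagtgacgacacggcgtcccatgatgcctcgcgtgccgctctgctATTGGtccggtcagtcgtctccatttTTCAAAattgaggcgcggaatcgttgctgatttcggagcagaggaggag
Kif22, chr7:127042391-127042540, minus strand: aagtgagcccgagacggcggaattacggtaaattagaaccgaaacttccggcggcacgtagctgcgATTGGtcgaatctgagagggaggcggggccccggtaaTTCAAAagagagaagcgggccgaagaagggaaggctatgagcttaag
Kif4, chrX:100625945-100626094, plus strand: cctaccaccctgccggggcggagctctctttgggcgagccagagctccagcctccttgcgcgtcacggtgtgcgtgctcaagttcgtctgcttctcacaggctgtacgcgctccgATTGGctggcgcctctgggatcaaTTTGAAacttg
Kif18b, chr11:102925095-102925244, minus strand: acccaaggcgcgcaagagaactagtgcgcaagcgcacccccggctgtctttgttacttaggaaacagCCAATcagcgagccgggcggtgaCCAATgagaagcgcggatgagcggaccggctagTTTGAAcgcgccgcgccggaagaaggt
Kif26b, chr1:178529005-178529154, plus strand: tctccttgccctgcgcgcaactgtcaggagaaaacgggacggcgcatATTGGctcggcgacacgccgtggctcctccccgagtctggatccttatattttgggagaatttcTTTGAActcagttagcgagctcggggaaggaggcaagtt

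Of the 41 genes, 33 had a promoter in the RefSeq table, matched by symbol, and the search covered 250 bases before to 50 after the start. Both motifs were present in 8 of 14 kinesin genes of the spindle group (57.1%), in 1 of 14 of the transport group (7.14%) and in 1 of 5 of the cilium group. Among all 27025 genes with a promoter in the table, 7.97% held both, 20.2% held the CHR letters and 41.1% the CCAAT letters. The 8 were Kif4, Kif11, Kif14, Kif18b, Kif22, Kif23, Kifc1 and Kifc5b. In none of the 6 genes printed did a CHR match overlap a CCAAT match. In Kif11 the CCAAT letters lay at -45 to -41 and the CHR letters at -19 to -14, and in Kif22 at -54 to -50 and -17 to -12. In Kif23 the CCAAT letters ended at -3 and the CHR letters began at position 3, just past the annotated start. A match is a description of letters and not evidence of binding. Among the 597 tested genes with both motifs, 5.86% fell and 9.21% rose in XY oocytes.

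Before any kinesin result, the samples were compared with their labels. The Y-linked gene Uba1y read 3560 to 4630 on the deposited intensity scale in XY and 5.91 to 26.8 in XX. The 12 oocyte markers (among them Zp3, Gdf9 and Nlrp5) lay above the array's median on all 6 arrays. Their summed intensity was 77500 to 101000 in XX and 59500 to 79000 in XY. Of these 12, Bmp15 fell by 1.34 ± 0.20 and Mos by 0.85 ± 0.18 (limma's adjusted p = 0.0101 and 0.0272). Ddx4 rose by 1.01 ± 0.23 (adjusted p = 0.0321). Of 13 markers of granulosa and cumulus cells, 5 lay above the median on all arrays and 2, Amh and Inhba, on none. Their summed intensity was 1360 to 1740 in XX and 1270 to 1800 in XY, of which Nr5a2 alone gave 552 to 1110. Within this list Inha rose in XY by 1.58 ± 0.41 (limma's adjusted p = 0.0475), from deposited intensities of 38.1 to 114 in XX to 154 to 270 in XY. Kitl was lower in XY without overlap but did not pass (-0.63 ± 0.19, adjusted p = 0.0715). The sum of 8 theca and stroma markers was 176 to 250 in XX and 365 to 605 in XY. Of this, Dcn gave 20.1 to 90.1 in XX and 135 to 320 in XY, and 4 of the 8 lay below the median on every array. The sum of 8 blood, immune and endothelial markers was 153 to 263 and 214 to 248. Of these last, 3 were tested. Cd68, a macrophage marker, rose by 0.59 ± 0.14 (adjusted p = 0.0392), from 27.2 to 39.3 in XX to 54.4 to 66.8 in XY. Lyz2 had a change of 0.39 (adjusted p = 0.236) and Pecam1 of -0.21 (adjusted p = 0.678), and the groups overlapped in both. The arrays XX 2 and XX 3 stood apart in RNA quality controls: the 5' control of Actb read 184 and 188 there, against 45.8 to 62.7 on XX 1 and the XY arrays. The part that these differences have in the kinesin values was not tested. In samples of whole cells, fewer cells of a type and less RNA per cell cannot be told apart.

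Of the 41 kinesin genes, 32 passed the filter on dim signal and were tested among 12442 genes. Of these, 2 rose and 1 fell in XY oocytes at an adjusted p of 0.05 (limma, Benjamini-Hochberg), a share of 9.38%. Over all genes tested, 13.2% were called, 7.86% higher and 5.34% lower. The split depended on the scaling: 978 genes rose and 665 fell here, 472 and 529 without scaling, 482 and 1622 under median scaling and 1423 and 586 under trimmed mean scaling. The kinesin genes called under these 3 other scalings were 1 higher and 1 lower, 1 and 7, and 2 and 1. The median log2 change was 0.01 for the kinesin genes and 0.07 for all genes, and the median size of change was 0.42 and 0.34. An unadjusted p under 0.05 (limma) was found for 15 of the 32 kinesin genes (46.9%) and for 32.2% of all genes. The XX and XY values did not overlap for 16 of the 32 kinesin genes, against 38.8% of all genes. These were 8 higher in XY (all genes, 22.6%) and 8 lower (all genes, 16.2%). The even split held under quantile normalization only: 5 were higher and 6 lower without scaling (all genes, 1599 and 1601), 1 and 10 under median scaling (1074 and 3470), and 10 and 6 under trimmed mean scaling (3346 and 1655). Log2 changes of the 32 genes ran from -0.92 (Kif16b) to 1.52 (Kif26a).

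**Figure D1:**
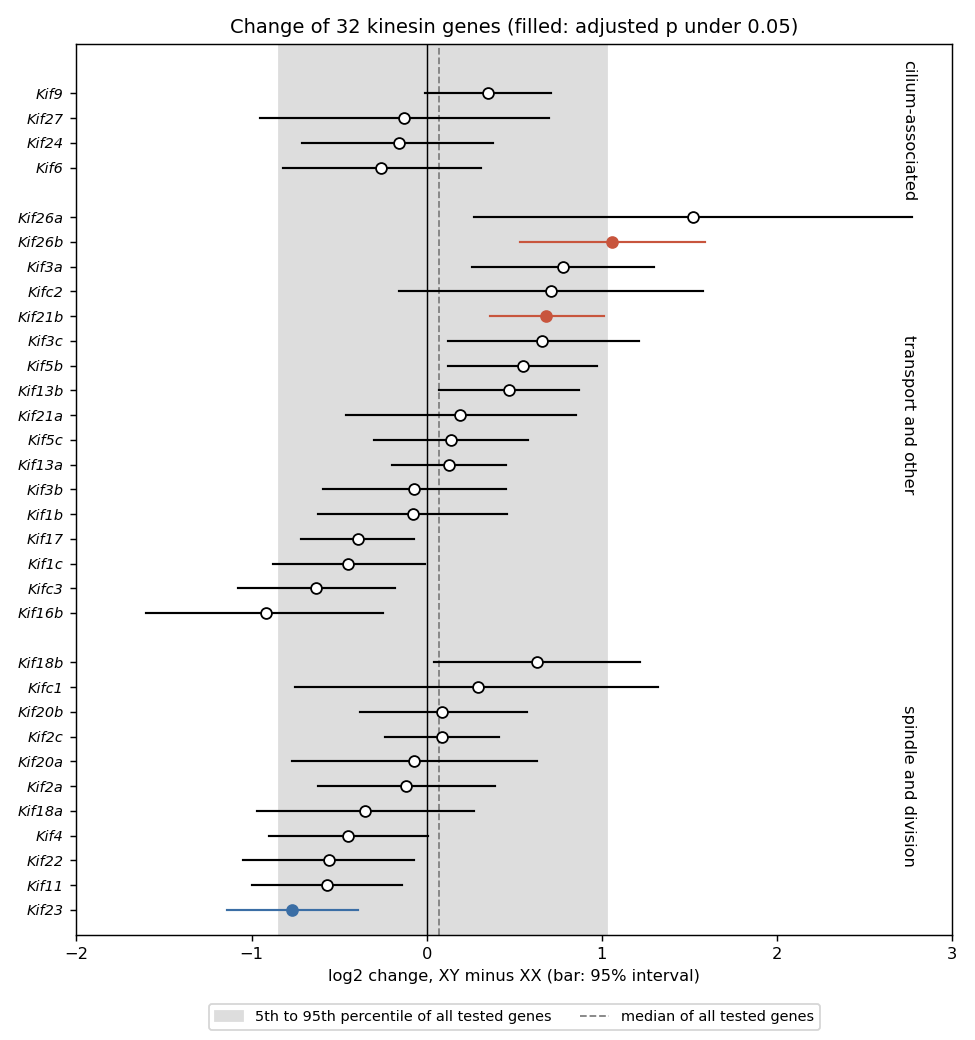
Log2 change (XY minus XX) of the 32 tested kinesin genes, ordered by role, with 95% intervals; filled points are the 3 genes past an adjusted p of 0.05. The grey band is the 5th to 95th percentile of all 12442 tested genes (-0.845 to 1.027), and 29 of the 32 points lie inside it, with Kif16b below and Kif26a and Kif26b above.

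The spindle and division group held 15 of the 41 genes, and 11 were tested. Of these, 1 fell and 0 rose by limma, and 4 had an unadjusted p under 0.05 (all genes, 32.2%). Without overlap, 4 of 11 were lower in XY (all genes, 16.2%) and 0 were higher (all genes, 22.6%). Without scaling 3 were lower and 1 higher (all genes, 1601 and 1599). Under median scaling 5 were lower and 0 higher (3470 and 1074), and 4 passed as lower by limma (all genes, 1622). Under trimmed mean scaling 3 were lower and 0 higher (1655 and 3346). Their median log2 change was -0.12. Unscaled deposited values gave -0.48, median scaling -0.65 and trimmed mean scaling -0.17, where the medians of all genes were -0.12, -0.27 and 0.18. The group's median was below that of all genes under each of the 4 scalings, which all use the same 6 arrays. With each gene centred on its mean, the group's median by array was -0.02, 0.43 and 0.28 in XX. In XY it was -0.20, -0.02 and -0.11. XX 1 was thus level with XY 2, and the difference rested on XX 2 and XX 3. Those arrays also stood apart in RNA quality controls, and the part that this has was not tested.

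Kif23 encodes the motor of centralspindlin, the complex that bundles the central spindle and directs the closing of the cleavage furrow. Its log2 level, on the quantile-normalized scale used for all log2 values here, read 12.36, 12.66 and 12.77 on the 3 XX arrays (in the order 1, 2, 3, as for every gene below) and 11.87, 11.82 and 11.81 on the 3 XY arrays. The XY arrays were close together and all lay below the lowest XX array, XX 1. On the deposited scale XX oocytes had an intensity of 6840 ± 1930 and XY oocytes 3170 ± 670 (SD, n = 3 each). Kif23 fell by 0.77 ± 0.16 (log2 ± SE, limma's adjusted p = 0.0259), a 1.70-fold difference. The other kept probe set of the gene fell by 1.10 ± 0.22 (adjusted p = 0.0268 over all kept probe sets), and this is the only kinesin gene of which more than 1 probe set was called. The fall passed under the deposited values (-1.09), median scaling (-1.25) and trimmed mean scaling (-0.77). The call ended when XX 2 was left out (adjusted p = 0.0765), and likewise for XX 3 (0.0678), XY 1 (0.0723), XY 2 (0.0875) and XY 3 (0.0871). It also ended when no filter was applied (0.0568), when XX 1 was the only XX array (0.109) and when the 3' to 5' signal ratio of Actb was a covariate (0.155).

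Partners of Kif23 on the central spindle had changes of both signs. Racgap1, the other subunit of centralspindlin, had a change of 0.53 ± 0.15 (adjusted p = 0.0560), with XX at 10.22, 10.22 and 10.25 and XY at 10.59, 10.80 and 10.89. Ect2, the RhoA exchange factor that centralspindlin recruits, fell by 0.86 ± 0.18 (adjusted p = 0.0253), with XX at 10.87, 11.44 and 11.26 and XY at 10.32, 10.34 and 10.32. Prc1, which cross-links antiparallel microtubules of the central spindle, had a change of -0.06 (adjusted p = 0.838).

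Kif11, Kif22 and Kif4 were the other spindle kinesins whose XX and XY values did not overlap, and none of these 3 passed. Kif11 encodes the motor that slides antiparallel microtubules apart to separate the poles. It had log2 levels of 9.17, 9.68 and 9.58 in XX and 8.75, 8.98 and 8.98 in XY, with a change of -0.57 ± 0.18 (adjusted p = 0.0801). Its other kept probe sets had changes of -0.85 and -1.85, all 3 with lower log2 values on every XY array than on any XX array. In the set with -1.85, XX read 5.9, 8.28 and 8.08 and XY 5.7, 5.83 and 5.18, so its size rested on XX 2 and XX 3. On the deposited scale XX 1 (42.6) lay below XY 1 (47) and XY 2 (48.1) in that set. Kif22, a chromokinesin that pushes chromosome arms away from the poles, had 12.87, 13.18 and 12.89 in XX and 12.45, 12.74 and 12.07 in XY (-0.56 ± 0.21, adjusted p = 0.112). Its 3 kept probe sets had changes from -0.56 to -0.35, but the groups overlapped in all except the set that stands for the gene.

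Kif4, the other chromokinesin, which also works with Prc1 in the central spindle, is the only X-linked member. Its levels were 10.61, 11.20 and 11.16 in XX and 10.54, 10.61 and 10.49 in XY, with a change of -0.45 ± 0.19 (adjusted p = 0.161). XX 1, at 10.61, was level with XY 2, so the groups were separated by less than the rounding of these values. With XX 1 left out, Kif4 passed at -0.63 (adjusted p = 0.0176), and under median scaling at -0.98 (0.0416). Of the 6 tested spindle kinesins with both promoter motifs, these 4 (Kif4, Kif11, Kif22 and Kif23) were lower in XY without overlap, while Kif18b and Kifc1 were not. Of the 4 tested spindle kinesins that had a promoter without both motifs, 0 were lower without overlap. Kif20a, also tested, had no promoter in the RefSeq table. The motifs were chosen with these values known, so the contrast cannot test a link between motif and direction. Over all tested genes with both motifs, 14.7% were lower without overlap, and over all tested genes with a promoter 16.4% were.

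The remaining spindle kinesins had smaller or opposite changes. Kif18b, which shortens astral microtubules, had a change of 0.63 ± 0.25 (adjusted p = 0.134), with XX at 9.23, 8.34 and 8.51 and XY at 9.15, 9.39 and 9.43. XX 1 lay among the XY arrays there, and without it the gene passed at 0.90 (adjusted p = 0.0121). Kif18a, which limits the swinging of chromosomes at the spindle equator, had a change of -0.35 (adjusted p = 0.393). The depolymerases Kif2a, active at spindle poles, and Kif2c, active at centromeres, had changes of -0.12 and 0.09. Kif2c was among the brightest kinesin probe sets, at 12.03, 11.98 and 11.85 in XX and 12.07, 12.06 and 11.99 in XY. The interval of its difference ran from -0.24 to 0.41, and its sign turned under other settings (-0.28 without scaling and -0.44 under median scaling). Kif20a, which brings the Aurora B complex to the central spindle, had -0.07, and Kif20b, which acts late in cytokinesis, had 0.09 from its brightest probe set and -1.11 from the other.

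Kifc1, the minus-end motor that focuses spindle poles, had the widest XX spread of the group. It read 9.28 on XX 1 against 7.57 and 7.66 on XX 2 and XX 3, and 8.57, 8.27 and 8.54 in XY, with a change of 0.29 ± 0.44 (adjusted p = 0.682). Its probe set name ends in _s_at, which marks a set that can bind several related transcripts, and its near-copy Kifc5b is also on the array, at intensities of 1.76 to 21.6. The split between Kifc1 and Kifc5b is therefore uncertain. Probe sets named _s_at or _x_at, which may bind other transcripts too, also stand for Kif22, Kif2c, Kif13a, Kif16b and Kif17. Kif14, Kif15 and Kif2b were not tested: Kif14 read at most 8.36, Kif2b at most 21.3 and Kif15, a motor that can assist Kif11, 14.5 to 57.1.

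The transport group, with kinesins of other roles included, held 21 of the 41 genes, of which 17 were tested. Of these, 2 rose and 0 fell by limma, and 11 had an unadjusted p under 0.05 (all genes, 32.2%). Their median log2 change was 0.19. Unscaled deposited values gave 0.19, median scaling 0.04 and trimmed mean scaling 0.50, where the medians of all genes were -0.12, -0.27 and 0.18. The group's median was above that of all genes (0.07 in the main fit) under each of the 4 scalings, which all use the same 6 arrays. XY values were higher without overlap for 7 of the 17 genes (all genes, 22.6%) and lower without overlap for 4 (all genes, 16.2%). This balance turned with the scaling, as it did over all genes. It was 4 higher and 3 lower without scaling (all genes, 1599 and 1601). Under median scaling it was 1 and 4 (1074 and 3470), and 9 and 3 under trimmed mean scaling (3346 and 1655). By limma 1 rose and 3 fell under median scaling (all genes, 482 and 1622).

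Kif26b rose most among the called genes. It encodes an atypical kinesin that binds microtubules without the motor's usual ATPase activity and is known from kidney development. Its log2 levels were 8.86, 8.32 and 8.32 in XX and 9.62, 9.24 and 9.82 in XY, and the highest XX array, XX 1, lay below every XY array. Deposited intensities were 381 ± 32.2 for XX and 668 ± 189 for XY (SD, n = 3 each). The rise was 1.06 ± 0.23 (log2 ± SE, limma's adjusted p = 0.0267), a 2.09-fold difference. The call ended with the deposited values (0.76, adjusted p = 0.128), median scaling (0.59, 0.144), no filter (0.0544) or the Actb ratio as a covariate (0.165). It was also lost without XX 2 (0.0838), XX 3 (0.0820), XY 1 (0.0761) or XY 3 (0.0836), and with XX 1 alone (0.200).

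Kif26a, its close relative and a regulator of growth factor signalling in enteric neurons, had the largest change of all tested kinesin genes but wide spread. Its levels were 6.28, 5.15 and 4.51 in XX and 6.27, 7.75 and 6.49 in XY, with a change of 1.52 ± 0.53 (adjusted p = 0.0977). XX 1 and XY 1 were level, XX 2 and XX 3 lay below the median of all probe sets (5.24), and XY 2 stood above the other XY arrays. Kif26a met the filter through the XY arrays, with all 3 of them above the median and only 1 XX array. Its entry to the test thus depended on the group where it is high. The gene passed without scaling at 1.53 (adjusted p = 0.0285), under median scaling at 1.39 (0.0366), and without XX 1 at 2.02 (0.0317).

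Kif21b, a neuronal kinesin that slows microtubule growth, rose by 0.68 ± 0.14 (adjusted p = 0.0239), a 1.61-fold difference. It had levels of 7.46, 7.27 and 7.34 in XX and 7.99, 8.02 and 8.11 in XY, and the lowest XY array lay above the highest XX array. Deposited intensities were 163 ± 27.3 for XX and 230 ± 31.5 for XY (SD, n = 3 each). The pass was lost with the deposited values (0.48, adjusted p = 0.305), median scaling (0.32, 0.357), no filter (0.0557) and the Actb covariate (0.126). It ended too without XX 2 (0.0740), XX 3 (0.0678), XY 1 (0.0680), XY 2 (0.0786) or XY 3 (0.0866), and with XX 1 alone (0.118). Its relative Kif21a had a change of 0.19 (adjusted p = 0.665) near the median of all probe sets.

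**Figure D2:**
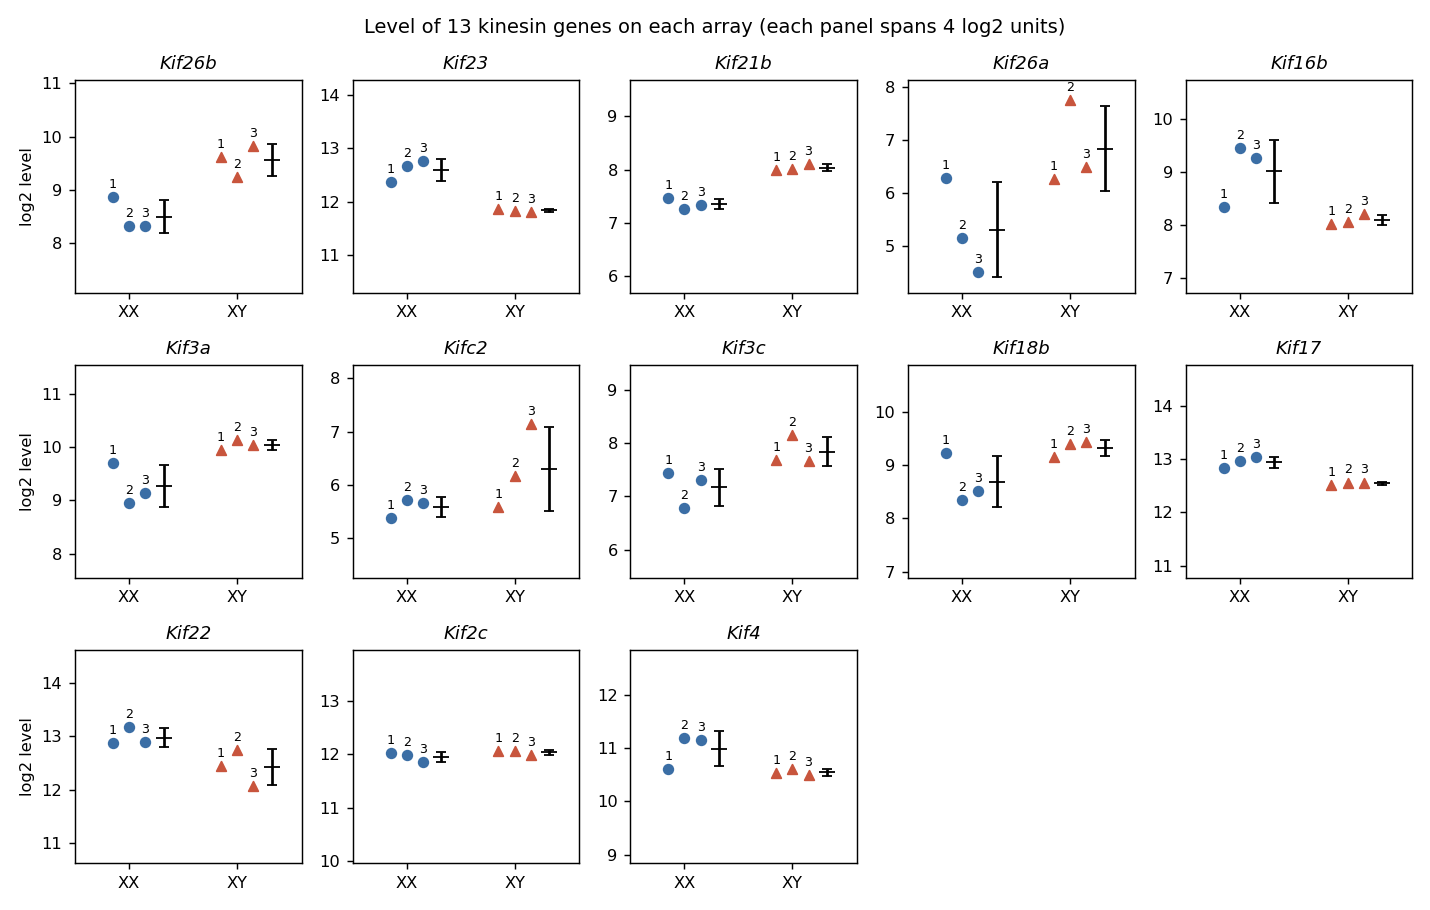
Log2 level of 13 kinesin genes on each of the 6 arrays; circles are XX and triangles XY, numbered by replicate, and bars give the mean and SD of 3 arrays. Kif23, Kif26b and Kif21b passed the test. In Kif26a, Kif3a, Kif16b, Kif18b and Kif4 the array XX 1 lies away from XX 2 and XX 3, towards the XY arrays.

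Subunits of kinesin-2 had changes in both directions. Kif3a and Kif3b pair, with the adaptor protein Kifap3, in the motor that drives transport within cilia and of several cargoes in the cytoplasm. Kif3a had levels of 9.71, 8.95 and 9.13 in XX and 9.94, 10.14 and 10.04 in XY, higher in XY without overlap, with a change of 0.78 ± 0.22 that missed the threshold (adjusted p = 0.0581). Another of its 4 kept probe sets went the opposite way without overlap (-0.39 ± 0.15, adjusted p = 0.142), so the direction of Kif3a depends on the probe set. Kif3b had a change of -0.07 (adjusted p = 0.851), while 1 of its 3 kept probe sets was called lower on its own (-0.60 ± 0.15, adjusted p = 0.0475). Kif3c, which pairs with Kif3a in neurons, had 7.43, 6.78 and 7.31 in XX and 7.69, 8.16 and 7.67 in XY (0.66 ± 0.23, adjusted p = 0.0969). Kifap3 rose by 0.83 ± 0.21 (adjusted p = 0.0460) from a low level.

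Kif17, the homodimeric kinesin-2 known from dendrites and sperm cell development, gave some of the brightest kinesin signal in these oocytes. Its levels were 12.83, 12.96 and 13.03 in XX and 12.51, 12.56 and 12.56 in XY. The XY arrays were all lower, by 0.39 ± 0.14, which did not pass (adjusted p = 0.0980). Its other kept probe sets had -0.25 and 0.03. Signals of different probe sets depend on the probes as well as on the mRNA, so brightness does not rank the genes by abundance.

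Conventional kinesin, kinesin-1, is made of Kif5 heavy chains and Klc light chains. Kif5b, the widely expressed heavy chain, had levels of 8.89, 8.34 and 8.49 in XX and 9.07, 9.18 and 9.12 in XY (0.55 ± 0.18, adjusted p = 0.0851), and its 5 kept probe sets ran from -0.52 to 0.55. Kif5c had a change of 0.14 (adjusted p = 0.642), and Kif5a, the neuronal form, was not tested. The light chain genes Klc1, Klc3 and Klc4 had changes of -0.30, 0.06 and 0.09, with adjusted p from 0.355 to 0.950.

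Kinesin-3 motors carry vesicles and endosomes. Kif16b, which moves early endosomes, had the lowest change of all tested kinesin genes at -0.92 ± 0.29 (adjusted p = 0.0741). It read 8.34, 9.44 and 9.26 in XX and 8.02, 8.06 and 8.20 in XY, with XX 1 nearer the XY arrays than XX 2 and XX 3. Without XX 1 it passed at -1.26 (adjusted p = 0.00568). All 3 kept probe sets were lower in XY, from -0.92 to -0.38. Kif1c had -0.45 from its brightest probe set and 1.18 from another, neither past the threshold. Kif13b (0.47), Kif13a (0.13) and Kif1b (-0.08) did not pass, with adjusted p from 0.107 to 0.828. The 7 kept probe sets of Kif1b ran from -0.15 to 0.66.

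Of the minus-end motors outside the spindle, Kifc3, known at epithelial cell junctions, was lower in XY without overlap. It had 8.91, 9.16 and 9.53 in XX and 8.50, 8.53 and 8.68 in XY (-0.63 ± 0.19, adjusted p = 0.0700). Kifc2, a neuronal motor, had 5.37, 5.71 and 5.66 in XX and 5.58, 6.16 and 7.14 in XY (0.71 ± 0.37, adjusted p = 0.225), and the groups overlapped. Kif1a, Kif5a, Kif12 and Kif28 did not pass the filter, with deposited intensities of at most 53.5 on any array.

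The cilium group held 5 genes and 4 were tested, with 0 called by limma. An unadjusted p under 0.05 was found for 0 (all genes, 32.2%). Kif9, a motor of motile cilia, was higher in XY without overlap (0.35 ± 0.15, adjusted p = 0.160). Kif6, Kif24, which acts at centrioles, and Kif27 had changes of -0.26, -0.16 and -0.13. Kif7, a regulator of Hedgehog signalling, read 1.90 to 16.3 and was not tested.

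Of the 18 kinesin genes with several kept probe sets, 13 had changes of both signs (72.2%), against 44.9% of the 4937 such genes in all. A gene with more kept probe sets can more easily have both signs. The number, 2 to 7 in these kinesin genes, was not matched between them and all genes. In the fit over all 22997 kept probe sets, 5 of 71 kinesin probe sets were called, 2 higher and 3 lower, where 10.5% of all probe sets were. The 5 were those of Kif21b and Kif26b, both of Kif23 and 1 of Kif3b.

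**Figure D3:**
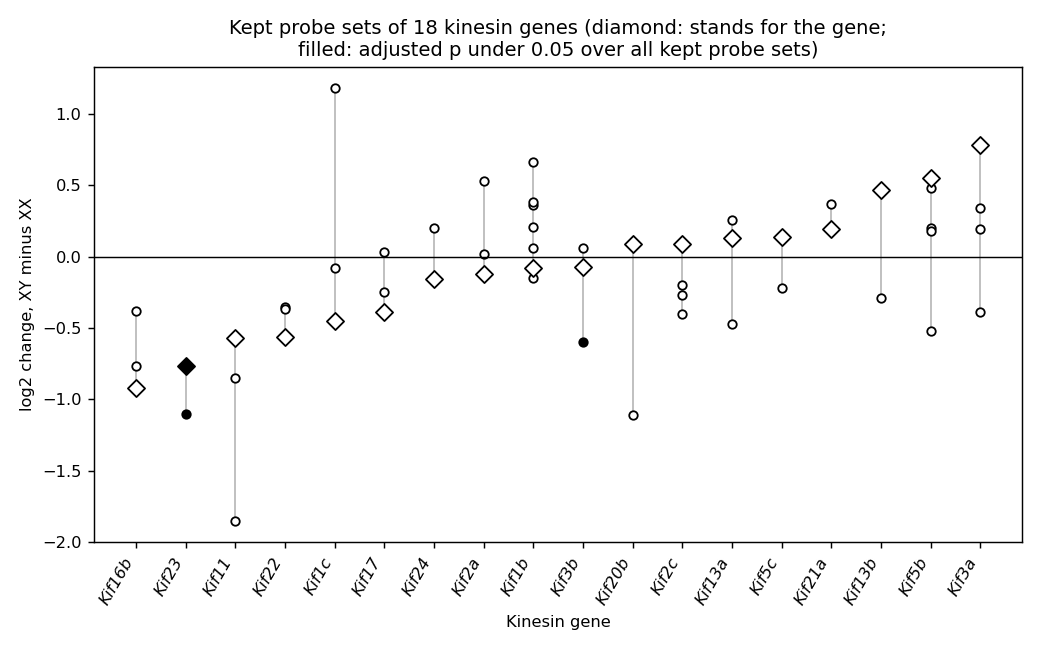
Log2 change (XY minus XX) of each kept probe set of the 18 kinesin genes with several; diamonds stand for the gene in the main test and filled symbols passed an adjusted p of 0.05 over all kept probe sets. Kif23, Kif11, Kif16b, Kif22 and Kif21a keep 1 sign over their probe sets and the other 13 genes cross 0.

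The array XX 1 lay nearer the XY mean than the mean of XX 2 and XX 3 for 19 of the 32 kinesin genes (59.4%) and for 50.2% of all genes. Among genes whose groups did not overlap, this held for 7 of 16 kinesin genes and 25.8% of all. Without XX 1, 8 kinesin genes were called higher and 7 lower of 31 tested, where 27.4% of all genes were called. Without XX 2, XX 3, XY 1 or XY 3, 0 were called by limma, where 4.42% to 5.47% of all genes were. In these fits 7 to 11 kinesin genes had an unadjusted p under 0.05 (limma). The share over all genes is not given for them, so this count cannot be read as a result about kinesins. Without XY 2 only Kif26b was called (all genes, 3.92%).

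**Figure D4:**
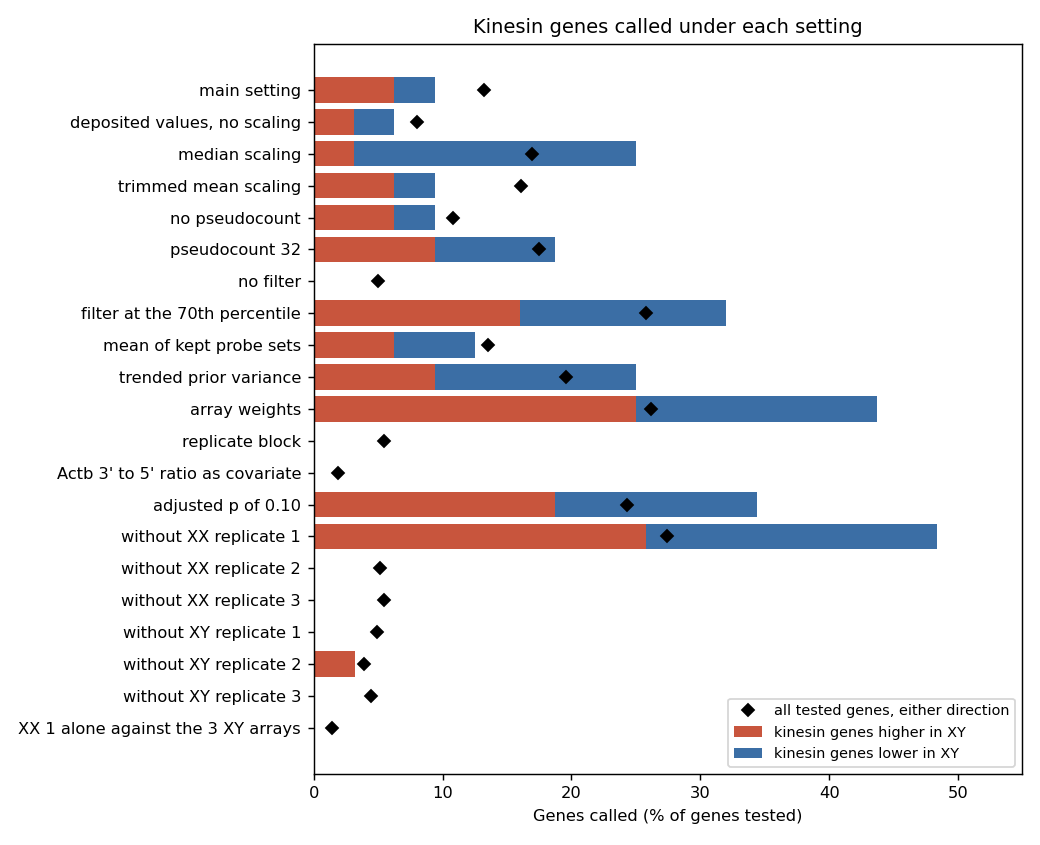
Share of tested kinesin genes called higher (red) and lower (blue) in XY under each setting, as % of kinesin genes tested; diamonds give the share of all tested genes called in either direction. With XX 1 left out 15 of 31 kinesin genes passed, and in 8 of the settings shown none did.

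Partners and cofactors of kinesins were listed apart from the motors. Their counts are read against the 13.2% of all genes called in either direction by the main fit. For called list genes the 12 alternatives were the other scalings, no filter, the mean of kept probe sets, the replicate block and each array left out. They did not include the Actb covariate or XX 1 as the only XX array. Among 13 tested kinesin partners and adaptors the median log2 change was 0.25; 3 rose and 0 fell. Kifbp, which binds several kinesins and keeps them off microtubules, rose by 0.80 ± 0.17 (adjusted p = 0.0285), with XX at 11.52, 11.11 and 11.02 and XY at 12.06, 12.00 and 12.00, and passed in 3 of 12 alternatives. Trak1, the adaptor between kinesin-1 and mitochondria, rose by 0.65 ± 0.15 (adjusted p = 0.0316), but passed in only 2 of 12 alternatives, with 0.11 under median scaling and -0.01 as the mean of its kept probe sets. With the deposited values or median scaling, 0 of the 13 passed (all genes, 8.05% and 16.9%). Cenpe, a kinesin of the kinetochore whose name falls outside the rule, had a change of 0.25 (adjusted p = 0.551).

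Of 39 tested spindle regulators, 3 rose and 2 fell, with a median of -0.01. Haus1, a subunit of the augmin complex that branches spindle microtubules, rose by 1.53 ± 0.32 (adjusted p = 0.0253), and passed in 7 of 12 alternatives. Ect2, described above, had the same p and passed in 5 of 12. Of 26 tested dynein and dynactin genes, which form the main motor in the direction opposite to most kinesins, 2 rose and 0 fell. Nde1, a dynein regulator, rose by 1.73 ± 0.16 (adjusted p = 0.00322), from 7.27, 7.29 and 7.48 in XX to 8.95, 8.99 and 9.28 in XY. It passed in 12 of 12 alternatives run on it, but the Actb covariate was not among them. Dync1i1, a dynein intermediate chain, rose by 1.49 ± 0.32 (adjusted p = 0.0272) and passed in 6 of 12. Of 27 tested tubulins and their folding and nucleation factors, 1 rose, Tubd1 (0.60 ± 0.14, adjusted p = 0.0334), and 0 fell. Tubd1 passed in 3 of 12 alternatives and had 0.25 without scaling and 0.09 under median scaling. Tubb4a had a change of 1.05 (adjusted p = 0.0642). Under median scaling 4 of the 27 fell and 8 of the 39 spindle regulators did. Over all 12442 tested genes 1622 fell under that scaling, and their median log2 change was -0.27.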

How the data were processed

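Expression was measured on 6 Affymetrix arrays, 3 of XX and 3 of XY oocytes. The deposited values are linear intensity, 1 value for each probe set on each array, which the authors made with MAS5, per the submitters' processing notes. The MAS5 version and target are not given in the sources. Trimmed means (2% off either end) differed between arrays, from 194 to 332, so the arrays were quantile normalized, which hides any change in total mRNA. Values were log2(intensity + 9), with 9 the 25th percentile of all deposited intensities, which understates fold changes of dim genes.

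Probe sets were left without a name where they were controls (64), had several symbols (932) or had none (9160). Of 34945 with 1 symbol, 34741 were matched by gene ID to GRCm38.p6. Probe sets at or above the median in 3 or more of the 6 arrays were kept (22997), and the brightest stood for its gene (12442 genes). XY was compared with XX by limma 3.58.1 (lmFit, eBayes) in R 4.3.3 with Benjamini-Hochberg adjustment over all genes at 0.05. Intervals are 95%. The steps were tested on simulated data. P-values measure only the spread between these samples, and 3 arrays per group limit the precision.

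The members, role groups and lists were chosen with earlier results of these data known; the motifs and printed promoters were chosen with the kinesin values known. Array by array values are given for called kinesin genes, the 6 next largest changes, the 4 brightest probe sets and X-linked members; those of other kinesin genes were added after their values were seen. For kinesin genes, alternatives covered scaling, pseudocount, filter, probe sets, variance model, array weights, replicate block, the Actb covariate, threshold and each array left out. XX 1 as the only XX array, assumed to vary like the XY arrays, was added after seeing the data. List genes had fewer alternatives, which are named where their results are given. Protein sequences were not used here.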

Additional observations from a re-analysis of the deposited data

How the results depend on the processing

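The main fit called 2 kinesin genes higher and 1 lower in XY, and 13.2% of all genes. Counts under other settings follow, with the share of all genes called in brackets. They were 1 and 1 without scaling (8.05%), 1 and 7 under median scaling (16.9%) and 3 and 3 with a pseudocount of 32 (17.5%). No filter gave 0 and 0 (5.02%), where 14 of 41 had an unadjusted p under 0.05 by limma. Unadjusted counts in this section stand without their share over all genes and cannot be read as a result about kinesins. The 70th percentile filter gave 4 and 4 (25.8%) and the mean of kept probe sets 2 and 2 (13.5%). Every kept probe set gave 2 and 3 (10.5%) and a trended variance 3 and 5 (19.6%). Array weights gave 8 and 6 (26.2%) and an adjusted p of 0.10 gave 6 and 5 (24.3%). The Actb covariate gave 0 and 0 (1.9%), with 4 unadjusted. With single arrays left out the counts ran from 0 to 8 higher and from 0 to 7 lower, both highest without XX 1 (27.4%). The median log2 change (0.01) was -0.19 without scaling, -0.35 under median scaling and 0.19 with the Actb covariate. It ran from -0.03 to 0.14 with single arrays left out and was 0.10 with XX 1 as the only XX array. Among the named genes, Kif2c turned sign without scaling (-0.28), under median scaling (-0.44) and the mean of probe sets (-0.20); the cause was not tested. Of 32 kinesin genes, 24 kept their sign under 4 scalings.

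With the replicate block the counts were 0 higher and 0 lower (11 unadjusted), with 424 and 255 over all genes, and the adjusted p was 0.0734 for Kif23, 0.0525 for Kif26b and 0.0773 for Kif21b. Deviations of same-numbered samples from their group means had correlations of -0.10, 0.00 and -0.04. These gave no sign that the numbers pair the samples, but 3 arrays per group cannot settle it. Probe sets near the array's median, such as those of Kif6, Kif21a, Kif26a and Kifc2, carry the least precise values, and detection calls were not used here.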
